A study of Homo sapiens with 4 samples.

Results

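Cells with the strongest amino acid stress signature were examined in 4 single-cell RNA libraries. The name refers to the genes of the signature and not to a measured shortage of amino acids. The libraries were made from LNCaP prostate cancer cells and from 2 drug-resistant lines derived from them. The cells were chosen by a measured score, the summed UMIs (unique molecular identifiers, which count captured RNA molecules) of ASNS, DDIT3, TRIB3, CHAC1, PSAT1, SESN2 and PCK2 per 10000 UMIs of the cell. Barcodes with at least 1500 genes, at least 5000 UMIs and a mitochondrial share under 20% were kept, which left 15452 of 17233 barcodes. The top 10% of the score over the 15452 pooled cells gave 1546 members, of which 292 came from LNCaP, 469 from LNCaP-ENZ48, 389 from RES-A and 396 from the RES-B library. The remaining cells are called other cells here, and members were set against the other cells of their own library unless stated.

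LNCaP is an established line from a prostate carcinoma metastasis that grows under androgen signaling, and enzalutamide is a drug that blocks the androgen receptor. The LNCaP library came from parental cells given the solvent DMSO (0.1%) for 48 hours, and the LNCaP-ENZ48 library from the same parental cells given 10 µM enzalutamide for 48 hours. RES-A and RES-B are resistant lines derived from LNCaP by long exposure to drugs against the androgen receptor, and both were fed 10 µM enzalutamide at each passage. All 4 cultures shared the same medium, which contained serum and a glutamine dipeptide, and living cells were sorted before droplet capture. Each group was 1 library, and RES-A and RES-B are each 1 line, so no difference below has a replicate check and no test was run. Intervals are exact 95% intervals that cover counting error only. Where 4 values are given in a row, they follow the order parental LNCaP, then LNCaP-ENZ48, RES-A, RES-B.

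The integrated stress response couples amino acid supply to transcription. Kinases that sense uncharged tRNA (GCN2, gene EIF2AK4), unfolded protein in the endoplasmic reticulum (PERK, EIF2AK3), double-stranded RNA (PKR, EIF2AK2) or heme shortage and mitochondrial stress (HRI, EIF2AK1) phosphorylate the translation factor eIF2alpha. General protein synthesis then slows while the mRNA of the transcription factor ATF4 is translated more, and ATF4 with its C/EBP partners activates genes for amino acid synthesis, uptake and tRNA charging. Cultured tumor cells are known to use this program when asparagine, serine or cystine run short.

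The 7 genes of the score span these roles. ASNS makes asparagine (chr7:97851677-97872542, minus strand), PSAT1 catalyzes a step of serine synthesis (chr9:78297125-78330093, plus strand) and PCK2 is the mitochondrial enzyme that makes phosphoenolpyruvate (chr14:24094053-24110598, plus strand). DDIT3 encodes the transcription factor CHOP (chr12:57516588-57521737, minus strand) and TRIB3 a pseudokinase that restrains ATF4 (chr20:362835-397559, plus strand). CHAC1 degrades glutathione (chr15:40952962-40956512, plus strand), and SESN2 is a leucine sensor that restrains the growth kinase complex mTORC1 (chr1:28259518-28282491, plus strand). The positions are those of protein-coding genes in GENCODE 44 on GRCh38.

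Many ATF4-responsive genes carry a C/EBP-ATF response element near the start, and sequences are shown for genes whose levels are described below. The letters TGATGNAA were searched on both strands in RefSeq windows of 300 bases, from 250 bases before to 50 after each start (GRCh38.p14). The letters were in the window of 1217 of 27305 symbols (4.46%), of 2 of the 7 score genes, and of 18 of the 39 other ATF4 program genes that had a window (46.2%). Within the tRNA synthetases the letters were in 7 of 10 windows of the group that ATF4 is known to induce and in 0 of 6 windows of the other cytosolic synthetases. These groups were drawn up from known ATF4 targets, so their motif content is a description. The stretches below read 5′ to 3′ in the direction of the gene and end before the RefSeq start of their window. Other annotated starts can lie farther out, and the ASNS and CHAC1 stretches lie inside the gene spans given above. Matching letters are in capitals (TTNCATCA is the same element read on the opposite strand). They run 11 bases to either side of the match, or 30 where the longer stretch met no annotated exon, and stop at the start.
ASNS (chr7:97872458-97872487, minus strand): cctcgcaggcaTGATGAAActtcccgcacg
CHAC1 (chr15:40953251-40953280, plus strand): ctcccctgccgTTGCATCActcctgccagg
ATF3 (chr1:212565186-212565253, plus strand): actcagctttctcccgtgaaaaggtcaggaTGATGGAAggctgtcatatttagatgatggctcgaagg
CEBPG (chr19:33374041-33374108, plus strand): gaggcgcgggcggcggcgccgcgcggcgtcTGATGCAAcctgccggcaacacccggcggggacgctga
SLC1A5 (chr19:46784893-46784922, minus strand): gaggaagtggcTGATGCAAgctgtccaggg
GOT1 (chr10:99430785-99430852, minus strand): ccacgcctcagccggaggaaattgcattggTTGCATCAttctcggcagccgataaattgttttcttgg
GARS (chr7:30594834-30594863, plus strand): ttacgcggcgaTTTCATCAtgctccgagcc
IARS (chr9:92293698-92293721, minus strand): ttttcagcgcgTTGCATCAcctcc
AARS (chr16:70289675-70289704, minus strand): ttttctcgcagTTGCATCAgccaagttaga

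In ASNS the match began 68 bases before the RefSeq start of the window, and in CHAC1 209 bases before it. A match says only that these letters are present in the window.

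Depth differed between the libraries. The kept cells had a median of 26502 UMIs in LNCaP, against 12164 to 13968 in the other 3, so shares and cell cycle calls are also given after every cell was thinned to 5000 UMIs. Members had slightly more UMIs than other cells in each library (medians of 28027, 14560, 13352 and 12658 against 26230, 13869, 12075.5 and 12461). The median mitochondrial share was lower in members of every library, by the most in RES-B (11.2% against 12.4%). Ribosomal protein genes gave 22.8% to 28.5% of UMIs in members and 25.3% to 31.1% in other cells. The part of these differences in the results was not tested. Between 2 and 12 barcodes were shared by any pair of libraries, and 4 members carried a barcode that another library also held.

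The luminal epithelial markers KRT8, KRT18, EPCAM, HOXB13, FOLH1, KLK3 and TMPRSS2 were checked in members and other cells. KRT8 lay between 175.6 and 239.9 CPM (UMIs of the gene summed over the cells and scaled to a total of 1000000) in members and between 169.5 and 249 CPM in other cells. None of the 7 markers was 0.5 or more higher on the log2 scale in members of any library. Of the 7, 7, 5 and 7 that reached 10 CPM, 2, 2, 0 and 3 were that much lower. Of all genes, 1.9%, 2.11%, 1.84% and 2.55% were lower. In LNCaP, TMPRSS2 was at 50.2 CPM in members against 117 CPM in other cells (-1.22), and KLK3 at 350 against 801 CPM (-1.19). The 11 markers of basal, immune, fibroblast and endothelial cells were all under 10 CPM and summed to 1.66 to 6.48 CPM in members and 1.97 to 4.17 CPM in other cells. KRT5 and PTPRC were at 0 UMIs in all 4 libraries.

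The score had no gap at which the members separated. The cut lay at 13.33 UMIs per 10000, the 10 members nearest to it scored 13.33 to 13.35, and the 10 other cells nearest to it scored 13.31 to 13.32. The median score of all cells was 7.38, 5.50, 4.95 and 5.21, and 1146 cells lay within 10% of the cut. The members are therefore the upper range of a continuous score, and the name describes a range of cells and not a type. The score reads genes of the stress response and not its trigger, so amino acid shortage was not told apart from other triggers. The trigger was not tested.

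Members made up 14.5% of LNCaP cells (95% exact binomial interval 13.0 to 16.1, 292 of 2019). They made up 10.3% of LNCaP-ENZ48 cells (9.41 to 11.2, 469 of 4565), 8.404% of RES-A cells (7.62 to 9.24, 389 of 4629) and 9.34% of RES-B cells (8.48 to 10.3, 396 of 4239). The LNCaP interval lay above the other 3, and among those only LNCaP-ENZ48 and RES-A had intervals that did not overlap. With every cell thinned to 5000 UMIs and a cut of 8 UMIs of the 7 genes, the shares were 13.0%, 8.61%, 7.60% and 7.69%, so LNCaP was again the highest at equal depth. Among cells called G1 (below) LNCaP was not the highest, with 8.96% members against 10.7% in LNCaP-ENZ48. By the thinned rule these G1 shares were 8.63% and 8.83%. These shares describe how the rule fell over the libraries, since the score chose the cells. Of the members, 57.3% were also members by the thinned rule.

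**Figure D1:**
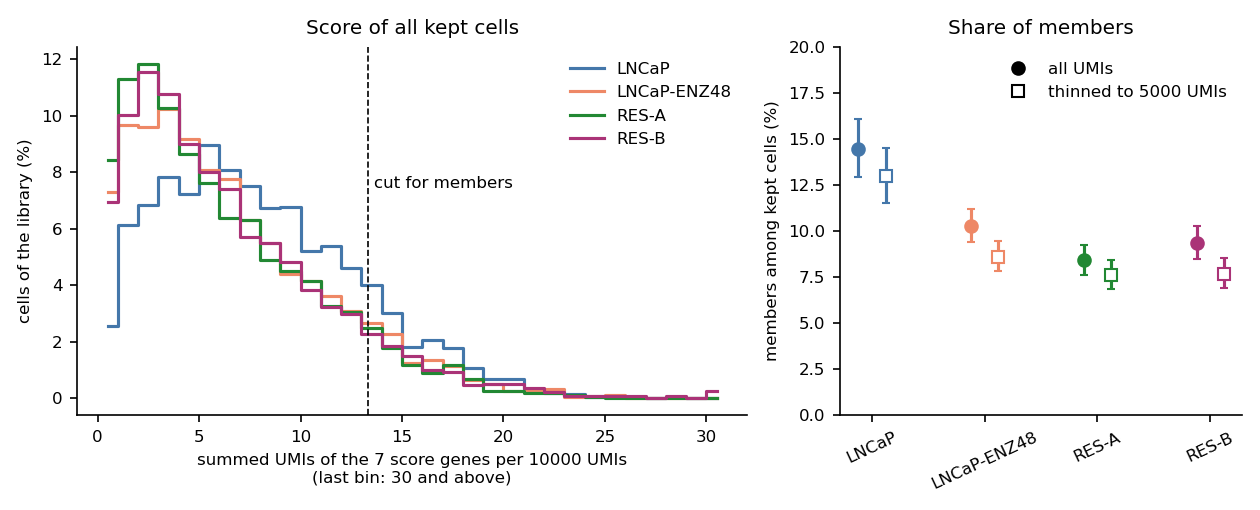
Left, the score (summed UMIs of the 7 genes per 10000 UMIs) of all kept cells as the percentage of each library per unit of score, with the cut at 13.33. Right, the percentage of kept cells that are members in each library, from all UMIs (filled) and after thinning to 5000 UMIs (open), with exact 95% binomial intervals. Over all cell cycle phases LNCaP is shifted to higher scores and has the highest share by both rules, and no library shows a gap at the cut.

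All 7 genes were higher in members of every library, as the rule requires. DDIT3 was at 288, 299, 308 and 411 CPM in members, against 79.4, 61.2, 84.5 and 93.7 CPM in the other cells. TRIB3 was at 276, 260, 186 and 309 CPM in members against 87.4, 57.7, 43.0 and 73.7 CPM in other cells. CHAC1 was at 53.6, 51.7, 43.8 and 39.7 CPM against 19.9, 14.97, 11.1 and 11.1 CPM. The log2 ratios of these 3 genes lay between 1.43 and 2.29.

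The log2 ratios of the enzymes lay between 0.93 and 1.48. ASNS was at 234, 247, 312 and 212 CPM in members against 119, 109, 114 and 77.7 CPM in other cells. PSAT1 was at 491, 441, 375 and 477 CPM against 231, 188, 139 and 184 CPM. PCK2 was at 241, 297, 352 and 213 CPM against 126, 117, 126 and 85.6 CPM, so ASNS and PCK2 were highest in RES-A members and PSAT1 in LNCaP members. SESN2 was at 49.97, 42.3, 55.4 and 64.9 CPM in members against 20.8, 18.3, 17.2 and 17.5 CPM, and in RES-B its ratio (1.90) was above that of CHAC1 (1.84).

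**Figure D2:**
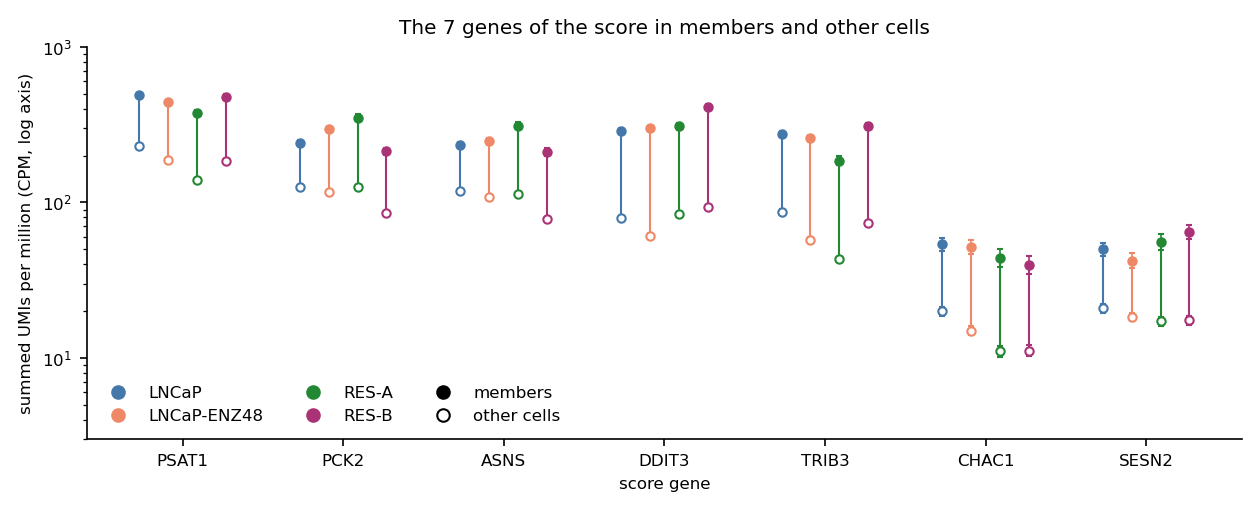
Level of each score gene in members (filled) and other cells (open) of each library, in CPM on a log axis, with exact 95% Poisson intervals of counting error. Members lie above other cells for all 7 genes in all 4 libraries, which the rule fixes, and DDIT3 is highest in RES-B members at 411 CPM.

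The makeup of the score differed between the libraries. PSAT1 gave the most UMIs of the 7 genes in 65.1%, 47.1%, 28.8% and 46.0% of members. ASNS led in 23.4% and PCK2 in 21.9% of RES-A members, against at most 10.0% and 11.5% elsewhere. DDIT3 led in 33.3% of RES-B members, the highest share of the 4. DDIT3, TRIB3 and CHAC1 together gave 37.8%, 37.3%, 33.0% and 44.0% of score UMIs in members and 27.3%, 23.7%, 25.9% and 32.9% in other cells. These shares come from the UMIs that chose the members and are a description only.

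To separate a cell's level from the luck of sampling, the UMIs of each cell were divided at random into 2 portions, members were chosen on 1 portion, and the 7 genes were read in the other. In the portion not used for the choice, chosen LNCaP cells had 14.8 score UMIs per 10000 against 7.14 in other cells, a log2 ratio of 1.05 (1.01 to 1.09). The log2 ratio in unused UMIs was 1.18 (1.13 to 1.23) in LNCaP-ENZ48, 1.23 (1.18 to 1.28) for RES-A cells and 1.34 (1.29 to 1.40) for RES-B cells. With the portions exchanged the 4 ratios were 1.08, 1.15, 1.19 and 1.32. In the UMIs that made the choice the same ratios were 1.33, 1.65, 1.77 and 1.78, so part of the gap in the choosing UMIs did not return in the unused ones.

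Each of the 7 genes was higher in unused UMIs of the chosen cells of every library, with DDIT3 between 1.45 and 1.90 on the log2 scale and ASNS between 0.79 and 1.15 over both choices. Of the chosen cells, 57.0% and 58.7% in LNCaP and 41.2% to 47.7% in the other libraries were chosen again from the other portion, against 5.30% to 7.20% of the cells not chosen. Membership of a single cell is thus uncertain at this depth, while the summed level of the chosen cells was higher in every library.

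Genes outside the score were compared next, with the 7 genes left out. A gene counted as higher or lower in members where its log2 CPM ratio was 0.5 or more, or -0.5 or less, its interval did not include 0, and it reached 10 CPM over all cells of the library. These are sums over cells of 1 library per group, and the same cells and UMIs set the score, so the counts are descriptions. In LNCaP 638 of 7420 genes were higher (8.6%) and 141 lower (1.9%). In LNCaP-ENZ48 241 of 7125 genes were higher (3.38%) and 150 lower (2.11%). In RES-A 288 of 7345 were higher (3.92%) and 135 lower (1.84%), and in RES-B 681 of 7598 were higher (8.96%) and 194 lower (2.55%). Over all phases LNCaP and RES-B had the larger counts of higher genes, but among cells called G1 the counts were 220 of 7171 (3.07%), 294 of 6966 (4.22%), 229 of 7178 (3.19%) and 573 of 7448 (7.69%), the lowest in LNCaP. The G1 counts of lower genes were 141 (1.97%), 226 (3.24%), 233 (3.25%) and 165 (2.22%). Without 11 RES-B cells of extreme score, all called G1 and described below, the RES-B G1 counts were 420 higher and 161 lower of 7434. Under TMM scaling, which centers most genes on 0, the counts were 383 higher and 260 lower in LNCaP and 458 higher and 370 lower in RES-B.

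The other genes of the ATF4 program, 50 genes in 6 lists, were mostly higher in members of all 4 libraries. Of those that reached the minimum, 24 of 42, 31 of 42, 31 of 41 and 34 of 43 were higher, and 0 were lower in any library. Their median log2 ratio was 0.53, 0.62, 0.77 and 0.73, beside medians of 0.09, 0.01, 0.01 and 0.07 over all genes. The share of program genes that were higher was 57.1%, 73.8%, 75.6% and 79.1%, against the 8.6%, 3.38%, 3.92% and 8.96% of all genes given above. The lists, the synthetase groups among them, were chosen with earlier results of these data known, so these shares are a description.

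Among stress transcription factors, ATF3, a repressor and activator induced early in stress, had the widest gap. ATF3 was at 102, 63.8, 34.7 and 107 CPM in members, against 30.7, 18.9, 14.96 and 22.1 CPM in other cells. Its log2 ratios were 1.73 (1.61 to 1.86), 1.75 (1.59 to 1.91), 1.21 (0.97 to 1.45) and 2.27 (2.12 to 2.41). RES-A members had the lowest ATF3 of the 4 groups of members, yet a higher level than the other cells of any library.

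ATF4 itself was at 598, 528, 668 and 480 CPM in members against 415, 340, 370 and 307 CPM in other cells, so its mRNA was higher by 0.53 to 0.85 on the log2 scale. CEBPB, a partner of ATF4, was higher by 1.01 to 1.25. CEBPG, whose promoter stretch is shown above, was higher by 0.83 to 0.98, and ATF5 by 0.79 to 1.10. All 7 factors of the list had ratios above 0 in each library.

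Amino acid enzymes outside the score followed. MTHFD2, a mitochondrial folate enzyme, was at 245, 175, 216 and 161 CPM in members against 139, 106, 106 and 75.8 CPM in other cells, which makes log2 ratios of 0.82, 0.73, 1.03 and 1.09. GOT1, which interconverts aspartate and glutamate, was higher by 0.81 to 1.11, and GPT2, an alanine transaminase, by 0.53 to 0.79. CTH, the last enzyme of cysteine synthesis from methionine, was higher by 1.29 in LNCaP, 1.42 in LNCaP-ENZ48 and 0.83 in RES-B and was under the minimum in RES-A.

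PHGDH, the entry enzyme of serine synthesis, passed the fold limit in LNCaP-ENZ48 (0.60) and RES-A (0.58) and had ratios of 0.42 in LNCaP and 0.48 in RES-B. The proline enzymes did not pass the limit in any library. PYCR1 had ratios of 0.21 to 0.44 and ALDH18A1 of -0.22 to -0.04.

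Amino acid transporters were higher in members as a group, with list medians of 0.62, 0.61, 0.77 and 1.00. SLC7A11, the cystine importer, was at 281, 176, 93.7 and 129 CPM in members against 154, 88.2, 40.2 and 62.8 CPM in other cells, with ratios of 0.87, 0.99, 1.22 and 1.04. Its partner chain SLC3A2 was higher by 0.99, 0.84, 0.86 and 1.30, and SLC1A5, which carries glutamine, by 0.65, 0.92, 0.95 and 1.00. SLC38A2, another carrier of neutral amino acids, passed the limit in LNCaP (0.52) and RES-B (0.57), with ratios of 0.21 in LNCaP-ENZ48 and 0.28 in RES-A.

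The cytosolic tRNA synthetases divided into a group that was higher in members and a group that was not. Of the 12 synthetases known as ATF4-induced, 6, 11, 9 and 7 were higher, with medians of 0.48, 0.60, 0.63 and 0.56. Of the 8 other synthetases 0 were higher or lower in any library, with medians of -0.02, 0.04, -0.09 and -0.10. GARS, which charges glycine, was at 276, 288, 277 and 259 CPM in members against 170, 154, 146 and 150 CPM in other cells. SARS, which charges serine, was higher by 0.73, 0.98, 0.77 and 0.82.

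DARS, which charges aspartate and stands in the second group, was at 80.9, 73.2, 79.6 and 107 CPM in members and 89.6, 81.0, 85.1 and 111 CPM in other cells. AARS, which charges alanine and carries the promoter letters, differed between libraries within the first group. It was at 178 against 120.4 CPM in LNCaP (0.56) and 188 against 112 CPM in LNCaP-ENZ48 (0.75). In RES-B AARS was at 164 against 128 CPM (0.36), under the limit, and in RES-A at 50.3 against 46.55 CPM (0.11, -0.08 to 0.30). IARS, which charges isoleucine, was higher in 3 libraries and under the limit in LNCaP, at 159, 149, 101 and 173 CPM in members against 117, 102, 70.8 and 115 CPM in other cells.

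The gradient ran through the whole score and not only at the cut. With the cells of each library ranked by score into 10 equal groups, the summed level of the 12 ATF4-induced synthetases went from 956 CPM in the lowest to 2377.5 CPM in the highest group of LNCaP. The same span was 888 to 2426 CPM in LNCaP-ENZ48, 1080 to 2198 CPM in RES-A and 1276 to 2613 CPM for RES-B cells. The 8 other synthetases lay between 395 and 552.5 CPM in every group of every library. ATF4 mRNA went from 279 to 608 CPM, 228 to 532 CPM, 203.5 to 660 CPM and 164 to 475 CPM between the lowest and highest groups. The median UMIs per cell also differed along the ranking, from 21772 in the lowest to 27270 in the highest group of LNCaP, and its part in the gradient was not tested.

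**Figure D3:**
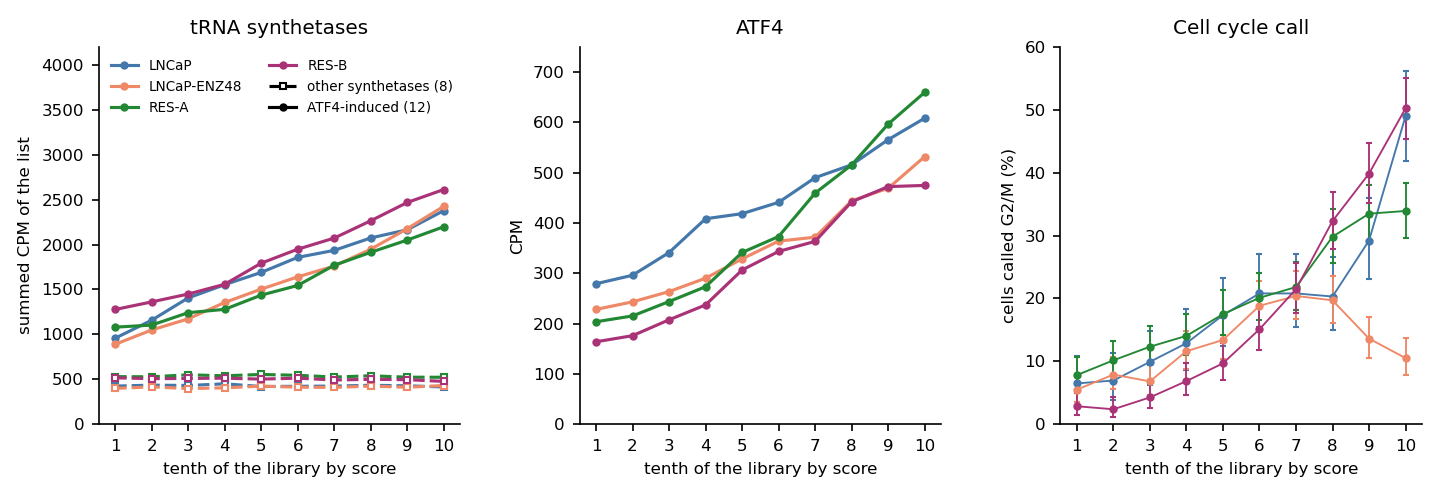
Cells of each library ranked by score into 10 equal groups (1 lowest, 10 highest). Left, summed CPM of the 12 ATF4-induced tRNA synthetases (filled, solid) and the 8 other cytosolic synthetases (open, dashed). Middle, CPM of ATF4. Right, percentage of cells called G2/M after thinning, with exact 95% binomial intervals. The induced synthetases and ATF4 climb with the score in all 4 libraries and the other synthetases stay between 395 and 552.5 CPM, while the G2/M share of LNCaP-ENZ48 falls back to 10.5% in the highest group.

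Stress effectors showed larger differences between libraries. DDIT4, a restrainer of mTORC1, was at 677, 672, 532 and 524 CPM in members against 372, 371, 279 and 284 CPM in other cells, with ratios of 0.86 to 0.93. STC2, a secreted glycoprotein of the stress response, was higher by 0.84 to 1.08. VEGFA, the angiogenic growth factor, passed the limit in LNCaP-ENZ48 (1.29), RES-A (1.17) and RES-B (0.90) and had a ratio of 0.4997 in LNCaP, just under it.

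GDF15, a secreted stress cytokine, was at 4363 CPM in LNCaP members against 3801 CPM in other LNCaP cells, a ratio of 0.20. It was at 3310 against 2163 CPM in LNCaP-ENZ48 (0.61), 606 against 294 CPM in RES-A (1.04) and 593 against 257 CPM in RES-B (1.21). The level of GDF15 was thus lowest in the resistant lines while its gap between members and other cells was widest there. CDKN1A, an inhibitor of the cell cycle kinases, had ratios of -0.09, 0.37, 0.06 and 1.14, and was higher only in RES-B members, at 38.3 against 17.4 CPM.

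The kinases upstream of ATF4 and the neighboring stress programs were set beside these lists. EIF2AK1, EIF2AK2 and EIF2AK4 reached the minimum, and 0 of the 3 were higher or lower in any library. EIF2AK3 did not reach the minimum in any library. These are mRNA levels, and the activity of the kinases was not measured. Of the chaperone and unfolded protein genes of the endoplasmic reticulum, 3 of 16, 7 of 15, 1 of 15 and 2 of 16 were higher (18.75%, 46.7%, 6.67% and 12.5%). The list medians were 0.19, 0.37, 0.12 and 0.13. Of all genes, 8.6%, 3.38%, 3.92% and 8.96% were higher. The shares lower were 1.9%, 2.11%, 1.84% and 2.55%, and both also stand beside the lists that follow. HERPUD1, a factor in the removal of misfolded proteins, was the member of the endoplasmic reticulum list that was higher in all 4 libraries (0.60, 1.12, 0.70 and 0.50). CLGN, a chaperone described below, was not on that list and was also higher in all 4. HSPA5, the main chaperone of the endoplasmic reticulum, was at 490 against 291 CPM in LNCaP-ENZ48 (0.75) and had ratios of 0.15 to 0.30 elsewhere.

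Of mitochondrial chaperones and proteases 1, 2, 2 and 2 of 6 were higher, with HSPA9 at 0.61, 0.83, 0.54 and 0.70. Of the cytosolic heat shock genes 0 were higher in any library and 1, 0, 1 and 0 of 7 lower. Targets of the antioxidant factor NRF2 were higher in 3 of 5, 3 of 5, 3 of 5 and 2 of 6 cases, among them GCLM, a subunit of the enzyme that starts glutathione synthesis (0.89, 0.72, 1.09 and 0.76). Of the genes listed as p53 targets 0 were higher and 2, 1, 2 and 1 were lower, a list that leaves out CDKN1A, GDF15 and PMAIP1, which p53 also induces and which are counted in other lists. Of the apoptosis effectors 2 of 5, 1 of 4, 1 of 4 and 2 of 5 were higher and 1 was lower, in LNCaP-ENZ48. Among them PMAIP1, which encodes the death-promoting protein NOXA, was higher in all 4 libraries (1.07, 0.95, 1.06 and 0.90). Cholesterol synthesis genes had medians of 0.02 to 0.13, with 0 higher and 0 lower.

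**Figure D4:**
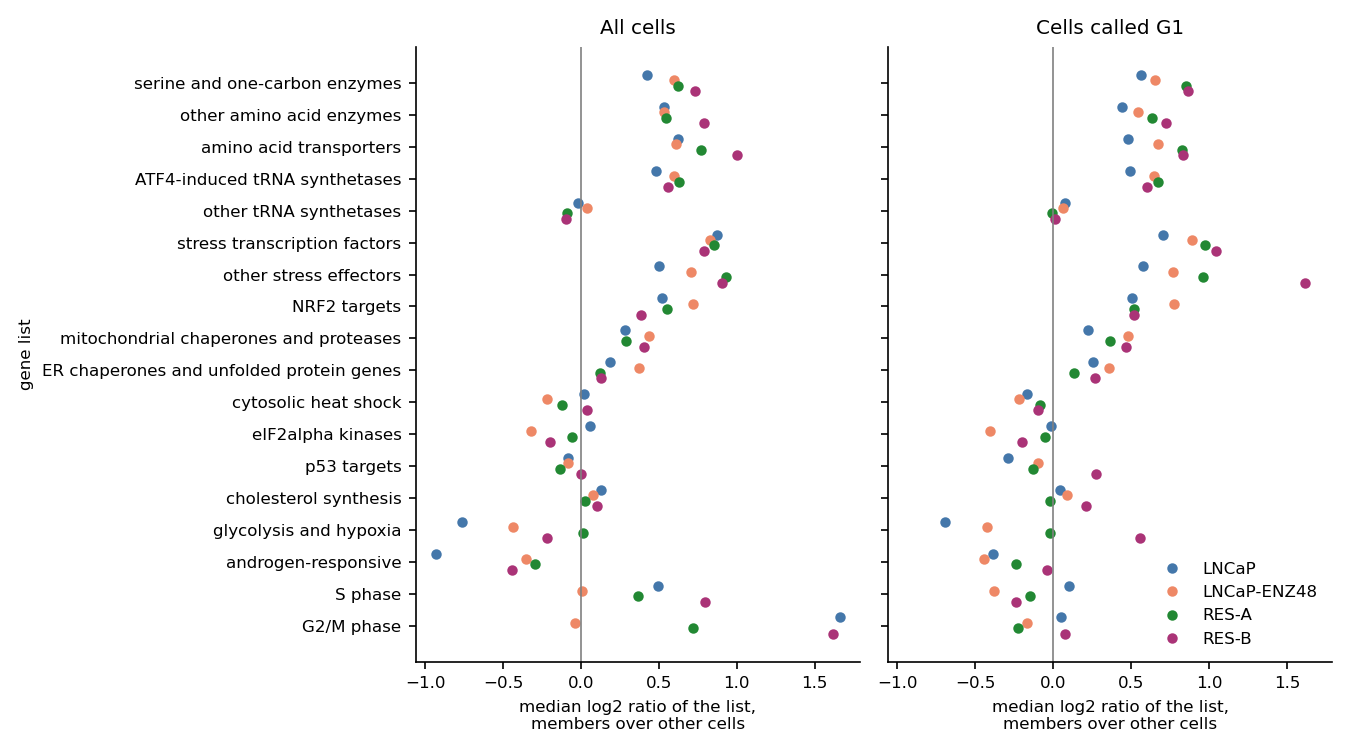
Median log2 ratio of members over other cells for each gene list and library, over genes of at least 10 CPM, in all cells (left) and in cells called G1 (right). The ATF4 lists lie to the right of 0 in both panels and the other tRNA synthetases near 0, while the G2/M list lies at 1.66 in LNCaP and 1.62 in RES-B among all cells and near 0 among cells called G1. The S and G2/M lists made the G1 call, so their place in the right panel is limited by it.

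Cell cycle genes split the libraries. Of the G2/M phase genes 51 of 52 were higher in LNCaP members, 38 of 48 in RES-A members and 46 of 48 in RES-B members, with medians of 1.66, 0.72 and 1.62. In LNCaP-ENZ48 members 0 of 44 were higher and 0 lower, with a median of -0.04. CDC20, the activator of the ubiquitin ligase that ends metaphase, was at 178 against 39.6 CPM in LNCaP (2.17), 112 against 43.8 CPM in RES-A (1.35) and 165 against 37.1 CPM in RES-B (2.15). In LNCaP-ENZ48 CDC20 was at 43.0 against 38.4 CPM (0.16, -0.02 to 0.34). S phase genes were higher in 13 of 27, 0 of 19, 9 of 32 and 20 of 30 cases, and 1, 1, 0 and 0 were lower.

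Cells were also given a phase from the S and G2/M lists after thinning to 5000 UMIs. G2/M cells made up 46.9% of LNCaP members (41.1 to 52.8, 137 of 292) against 14.7% of other LNCaP cells. They made up 33.2% of RES-A members (28.5 to 38.1, 129 of 389) against 18.9%, and 49.2% of RES-B members (44.2 to 54.3, 195 of 396) against 15.3%. In LNCaP-ENZ48 they made up 10.7% of members (8.02 to 13.8, 50 of 469) against 13.1% of other cells (12.04 to 14.13), and these intervals overlapped. Without thinning the shares of members were 51.4%, 11.3%, 33.9% and 51.8%.

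Read the other way, 35.0% of the G2/M cells of LNCaP were members (30.3 to 40.0), against 8.96% of its G1 cells. The shares were 13.9% against 6.63% in RES-A and 24.9% against 5.23% in RES-B. In LNCaP-ENZ48, 8.55% of G2/M cells (6.41 to 11.1) and 10.7% of G1 cells (9.71 to 11.7) were members. The difference in G2/M share between members and other cells was present in 3 libraries and not detected in LNCaP-ENZ48. The library that lacked it was the 1 given enzalutamide for 48 hours, and with 1 library a group the treatment and the library cannot be told apart.

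The G2/M share followed the score in LNCaP-ENZ48 up to a point. It was 5.48% in the lowest of the 10 groups, 20.4% in group 7 and 10.5% in the highest, whereas it was 6.47% and 49.0% in the lowest and highest groups of LNCaP, 7.79% and 33.9% in RES-A, and 2.84% and 50.2% in RES-B. Of LNCaP-ENZ48 members, 86.1% were called G1. In summed UMIs the score of G2/M and G1 cells was 11.03 and 7.295 in LNCaP, 7.38 and 6.64 in LNCaP-ENZ48, 8.18 and 5.68 for RES-A, and 10.4 and 5.25 for RES-B.

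By gene, the same phases differed in opposite directions in LNCaP-ENZ48. DDIT3 was at 71.8 CPM in its G2/M cells and 89.1 CPM in its G1 cells, and ASNS at 164 and 116 CPM. In LNCaP DDIT3 was at 168 and 89.8 CPM and ASNS at 183 and 121 CPM. TRIB3 was at 178 and 93.9 CPM in G2/M and G1 cells of LNCaP, and at 73.7 and 79.5 CPM in those of LNCaP-ENZ48.

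The gap in the ATF4 program was as wide within 1 phase. With members and other cells called G1 only, 24 of 42, 31 of 42, 31 of 41 and 32 of 41 program genes were higher, against the 3.07%, 4.22%, 3.19% and 7.69% of all genes given above, 0 were lower, and the medians were 0.55, 0.66, 0.85 and 0.86. Without the 11 RES-B cells of extreme score, the RES-B values in G1 were 33 of 41 higher and a median of 0.81, beside 420 of 7434 genes in all. With all cells, the induced synthetases had G1 medians of 0.49, 0.65, 0.67 and 0.60 and the other synthetases of 0.07, 0.06, -0.01 and 0.01. The G2/M list had G1 medians of 0.05, -0.17, -0.23 and 0.08. Cells were called G1 with this same list, so its medians there are limited by the call and are a description.

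Androgen-responsive genes and glycolysis genes were lower in members most often in LNCaP, by count. Of the androgen-responsive genes 7 of 11, 4 of 10, 1 of 5 and 3 of 10 were lower and 0, 0, 1 and 0 higher, with medians of -0.93, -0.35, -0.29 and -0.445. KLK3, the gene of prostate-specific antigen, was at 350 against 801 CPM in LNCaP and 56.6 against 98.0 CPM in LNCaP-ENZ48, and its reads may be shared with its near copy KLK2. Among cells called G1 the list medians were -0.39, -0.45, -0.24 and -0.04, so the gap in LNCaP was smaller within 1 phase.

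Of 11, 11, 9 and 11 glycolysis and hypoxia genes, 9, 4, 0 and 0 were lower and 0 higher, with medians of -0.76, -0.44, 0.01 and -0.22. PGK1, a glycolytic kinase, was at 227 against 464 CPM in LNCaP members and other cells and at 330.5 against 327.5 CPM in RES-A.

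Of 6450 genes that reached the minimum in all 4 libraries, 57 were higher in members of each library (0.884%) and 3 were lower in each (0.0465%). Of the 57, 18 belonged to the ATF4 lists, which had 41 genes in the comparison (43.9%). Besides genes named above they included the charging enzymes CARS, WARS and YARS. The 35 in no list included the peptide hormone gene ADM2 and LINC01133, a long non-coding RNA, the latter at ratios of 0.98, 1.09, 1.28 and 1.23. CLGN, a chaperone of the endoplasmic reticulum known from testis, had ratios of 0.90, 1.10, 0.97 and 1.09, and IFRD1, a transcriptional coregulator, 0.86, 1.04, 1.02 and 0.92. CCPG1, a receptor for the autophagy of endoplasmic reticulum, and SEPHS2, which makes the selenium donor of selenoproteins, were also among the 35. The lower genes included DSEL, at ratios of -0.69, -0.93, -1.33 and -0.89, and NETO1, at ratios of -1.16, -0.97, -0.56 and -1.20.

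By size of ratio, the genes at the ends of the ranking differed between libraries. Among genes of at least 50 CPM in members or other cells, the highest in LNCaP were the mitotic genes FAM83D (2.18), CDC20 (2.17), AURKA (2.125), CENPA (2.05) and CEP55 (2.03). In LNCaP-ENZ48 they were S100P (2.00), ATF3 (1.75), MT1G (1.29), VEGFA (1.29) and MIA2 (1.13). In RES-A they were CDC20 (1.35), LINC01133 (1.28), PLK1 (1.25), SLC7A11 (1.22) and VEGFA (1.17), and in RES-B ATF3 (2.27), PLK1 (2.18), CDC20 (2.15), FAM83D (2.08) and KIF2C (1.98). Mitotic genes were thus all 5 of those in LNCaP, 2 of those in RES-A, 4 of those in RES-B and none of those in LNCaP-ENZ48.

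S100P, a calcium-binding protein, was at 165 CPM in LNCaP-ENZ48 members against 41.4 CPM in other cells, and at 115 against 76.3 CPM in LNCaP (0.59). The lowest ratio in LNCaP and in RES-B was that of SYT4, a synaptotagmin of secretory vesicles, at 21.9 against 94.0 CPM (-2.10) and 33.7 against 94.0 CPM (-1.48). In LNCaP-ENZ48 members SYT4 was at 110 against 108 CPM (0.04, -0.07 to 0.14). The other lowest genes were KLK2, TMPRSS2, KLK4 and KLK3 in LNCaP, and BTG1, NETO1, PEG3, SESN3 and ACKR3 in LNCaP-ENZ48. They were IGFBP5, GNAI1, RDH10, SESN3 and EIF1B in RES-A, and NETO1, LRRN1, ADRA2A and KLK4 in RES-B. SESN3, a paralog of the score gene SESN2, was at 96.0 against 172 CPM in RES-A (-0.84) and 36.4 against 65.4 CPM in LNCaP-ENZ48 (-0.85).

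RES-B held an extreme set of members. Its scores reached 50.02, against 28.8, 33.7 and 27.6 in the other libraries, and 11 RES-B cells scored 30 or more, against 0, 1 and 0 cells in the other libraries. This limit was set after the scores were seen. All 11 were called G1, with a median of 11250 UMIs, 3775 genes and a mitochondrial share of 5.14%, against 11.2% over all RES-B members. In these 11 cells DDIT3 was at 1855 CPM against 377 CPM in the other RES-B members, and TRIB3 at 1298 against 286 CPM. SESN2 was at 287 against 59.7 CPM (2.26, 1.72 to 2.76). PSAT1 was lower in the 11 cells, at 310.5 against 480 CPM, and so was PCK2, at 95.6 against 216 CPM. ASNS (0.45, -0.07 to 0.93) and CHAC1 (-0.33, -2.21 to 1.05) had intervals that included 0. UMIs of these same genes make up the score that chose the 11 cells. The higher DDIT3, TRIB3 and SESN2 are therefore partly fixed by the choice, and these levels are a description only.

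ATF3 was at 1608 against 71.2 CPM in the same 11 cells (4.50, 4.24 to 4.75), with UMIs in 11 of 11. GADD45G, a growth arrest gene, was at 1210 against 47.8 CPM (9 of 11 cells) and DDIT4 at 3559 against 452 CPM (10 of 11). Genes of hypoxia and glycolysis were higher there too, with LDHA at 2492 against 433.5 CPM and NDRG1 at 573 against 48.6 CPM. Without the 11 cells, 628 of 7598 genes were higher and 209 lower in the remaining 385 RES-B members. The median of the ATF4 program was then 0.67, ATF3 had a ratio of 1.685 in place of 2.27, and CDKN1A 0.90 in place of 1.14.

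Among RES-B cells called G1 the glycolysis and hypoxia list had a median of 0.56 and 6 of 11 genes higher. Of all genes, 573 of 7448 (7.69%) were higher there. Over all phases the list had a median of -0.22 with 0 higher and 0 lower. Without the 11 cells the G1 median was 0.48 and 5 of 11 genes were higher in 152 G1 members, beside 420 of 7434 genes in all. In LNCaP the list median was below 0 over all phases and in G1 (-0.76 and -0.69).

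Members were last compared with members of another library, with a limit of 1 on the log2 scale. The 3 comparisons against LNCaP share the LNCaP library. Of 7494 genes 31 were higher (0.414%) and 357 lower (4.76%) in LNCaP-ENZ48 members than in LNCaP members. In RES-A members 251 of 7609 were higher (3.3%) and 501 lower (6.58%), and in RES-B members 363 of 7779 were higher (4.67%) and 273 lower (3.51%). Between RES-B and RES-A members 422 of 7641 were higher (5.52%) and 159 lower (2.08%).

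Members of every library passed the same cut on 7 genes of the ATF4 program, so the values below are limited by that choice. The other genes of the program were compared as a list. Its 43 genes had median log2 ratios of -0.13 (LNCaP-ENZ48, 0.02 under TMM scaling), -0.21 (RES-A) and 0.05 (RES-B, -0.10 under TMM scaling) against LNCaP members, and of 0.19 (0.02 under TMM scaling, 0.43 in G1) when RES-B was set against RES-A members. The medians over all genes in the same comparisons were -0.14, -0.08, 0.10 and 0.18. The same medians over other cells were -0.25, -0.28, -0.14 and 0.19. In LNCaP-ENZ48 0 of the 43 genes passed the limit in either direction, beside 0.414% higher and 4.76% lower of all genes. In RES-A 0 of 43 were higher and 7 lower than in LNCaP, beside 3.3% and 6.58% of all genes. In RES-B 2 of 43 were higher and 4 lower, beside 4.67% and 3.51%. Against RES-A, 2 of 43 were higher and 0 lower in RES-B, beside 5.52% and 2.08%. The counts of higher genes in RES-B thus lay near the share of all genes.

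Each of the genes that passed the limit pointed the same way between the other cells. GDF15 had log2 ratios of -2.85 and -2.88 in RES-A and RES-B members against LNCaP members, and of -3.69 and -3.89 between the other cells. AARS was lower in RES-A members than in LNCaP members (-1.82) and in RES-A other cells than in LNCaP other cells (-1.37). SLC7A11 was lower in RES-A (-1.58) and RES-B members (-1.13), and VEGFA was higher in RES-B members (1.42). Against RES-A members, ATF3 was higher in RES-B members by 1.62 (1.38 to 1.87), against 0.57 between the other cells of the 2 lines. Without the 11 RES-B cells of highest score the ATF3 ratio was 1.04 (0.78 to 1.30).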

How the data were processed

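UMI counts per gene and barcode were used as deposited. Per the labels and the study's methods, the authors made these counts with Cell Ranger 3.0.2 on GRCh38 from 3′ droplet libraries (10x v3), and each matrix holds 33538 genes. Groups came from the sample titles, with 1 library per group. The members and the gene lists were chosen with earlier results of these data known. UMIs were summed over cells and scaled to CPM. Shares have Clopper-Pearson intervals, CPM values exact Poisson intervals and log2 ratios exact conditional binomial intervals (scipy 1.17.1, numpy 2.4.6), whose script was tested on simulated data. A count of 0 was set to 3 UMIs in a ratio. Thinning drew 5000 UMIs per cell without replacement and left out 0 cells. Phases were called with scanpy 1.11.5. Named genes were the score genes, the list genes, the 5 highest and 5 lowest ratios per library (at least 50 CPM in members or other cells, the same sign under the study's cell limits and without the cells of most UMIs) and genes past the limit in all 4 libraries. GADD45G was picked with its value in view.

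The study's own cell limits left 1782 LNCaP cells, 4315 from LNCaP-ENZ48, 4569 from RES-A, and 4061 from the RES-B library. Alternatives were the thinned score, equal weights of the 7 genes, the score without PSAT1, the top 5%, the top 10% within each library, G1 cells only, the study's limits, cells without the top 5% of UMIs, TMM scaling (edgeR 4.0.16) and a minimum of 1 CPM. Doublets were neither called nor removed. The cultures hold no cell type known to lack the score genes, so free RNA was not measured. Promoter windows were matched by symbol or gene ID, for 7 of 7 score genes and 39 of 50 other ATF4 program genes. A result on 1 gene is not reported here.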

Additional observations from a re-analysis of the deposited data

Results flagged for a closer look

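BTG1, an antiproliferative gene, lay on opposite sides of 0 in 2 libraries. In LNCaP-ENZ48 it was at 220 CPM in members against 453 CPM in other cells (log2 ratio -1.039), and in RES-B at 142 against 75.8 CPM (0.9026). In LNCaP the ratio was -0.40 and in RES-A 0.32, both within the fold limit. Among cells called G1 the ratios were -1.17 in LNCaP-ENZ48 and 1.26 in RES-B. The difference between the libraries was not tested, since each group is 1 library.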

How the results depend on the processing

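No paired analysis was possible because each group is 1 library and the labels give no replicate numbers. Of the shares, counts of genes and medians of the ATF4 program, 118 values under an alternative stayed within the counting interval (counts of genes within 1.5 times, medians without the 11 highest RES-B cells within 0.1) and 37 moved further. Of the values of named genes and other lists 382 stayed within it, 119 moved further and 7 changed direction. Over all phases LNCaP had the highest share of members in every setting with a pooled cut. Among G1 cells the share was 8.96% in LNCaP and 10.7% in LNCaP-ENZ48, with intervals that overlapped. After thinning the share was 8.609% (LNCaP-ENZ48), 7.604% (RES-A) and 7.69% (RES-B), without PSAT1 it was 12.73% in LNCaP and 10.33% in RES-A, and in the top 5% it was 7.578%, 5.016%, 4.105% and 4.742%. The median of the ATF4 program was 0.4006 in LNCaP under TMM scaling, 0.5751 in LNCaP-ENZ48 and 0.6704 in RES-A after thinning, 0.5679 and 0.6382 there with equal weights, and 0.6733 in RES-A in the top 5%. TMM scaling lowered every ratio by a fixed amount (-0.13, -0.03, -0.03 and -0.11). Between members the median was -0.09661 in RES-B against LNCaP under TMM scaling, below 0, and 0.4293 in RES-B against RES-A in G1 (0.02 under TMM scaling). For LNCaP-ENZ48 against LNCaP it was 0.02 under TMM scaling, above 0, with a main value of -0.13. This value and the 0.02 of RES-B against RES-A, with a main value of 0.19, count among those that stayed.

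In LNCaP the count of higher genes was 409 after thinning, 363 with equal weights, 220 in G1, 383 under TMM scaling and 1284 at a minimum of 1 CPM, and that of lower genes was 225 in the top 5%, 260 under TMM scaling and 373 at 1 CPM. In LNCaP-ENZ48 507 were higher at 1 CPM, and 86 were lower with equal weights, 231 without PSAT1, 295 in the top 5%, 226 in G1 and 449 at 1 CPM. In RES-A 550 were higher at 1 CPM, and 233 were lower in G1 and 397 at 1 CPM. In RES-B 1245 were higher at 1 CPM, and 370 were lower under TMM scaling and 451 at 1 CPM. A minimum of 1 CPM lets more genes into the count.

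Direction changed in G1 for FAM83D in LNCaP (-0.3352) and for PLK1 (-0.268), CDC20 (-0.1477) and FAM83D (-0.3107) in RES-B. The median of the G2/M list changed to -0.2281 in RES-A in G1, and that of the glycolysis list in RES-B to 0.0861 in the top 5% and 0.5577 in G1. Cells were called G1 with the S and G2/M lists, so G1 values of the G2/M list and of mitotic genes depend on that call. The cause of the other changes was not tested. The alternatives for the G2/M, androgen-responsive, glycolysis and induced synthetase lists, and leaving out cells with a score of 30 or more (also between RES-B and RES-A members), were chosen after seeing the data. Members by equal weights held 56.3% of the members described here. With 1 library per group, no spread between cultures could be measured.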
